A study of Sus scrofa with 220 samples.

Results

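The chaperones and co-chaperones were followed across single cells of pig preimplantation embryos, from the morula to the spherical embryo. Members were taken by gene symbol alone, as symbols beginning with HSP (without HSPG2), DNAJ, CCT plus a digit or BAG plus a digit, and 62 of the 22840 entries in the tables matched. Of these, 59 had a TPM (a transcript level corrected for transcript length and depth) over 1 in at least 3 of the 220 cells and were kept. By family they were 19 DNAJC, 9 DNAJB and 3 DNAJA J-domain proteins, 7 CCT genes, 6 HSP70, 3 HSP90, 3 HSP110 and 3 BAG genes, 2 small heat shock proteins, HSPD1 with HSPE1, and 2 other genes with an HSP name. DNAJC5B, DNAJC6 and HSPB9 matched but did not pass, and 18 further symbols of these families, among them HSPA1L, HSPA6, HSPB1, CCT5 and DNAJB6, were not analysed here.

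The cells carried 7 labels over 4 stages of embryos recovered from inseminated pigs. They were morula (M, 47 cells), early blastocyst inner cell mass (ICM, 24) and trophectoderm (TE, 28), late blastocyst (LB) epiblast (EPI, 25) and hypoblast (HYPO, 36), and spherical embryo (Sph) EPI (48) and HYPO (12). No label carried a genetic change or a treatment, and no trophectoderm from LB or Sph embryos was included. Morulae and early blastocysts lost their zona in acid Tyrode's solution. Only LB embryos went through immunosurgery, in which antiserum and complement lyse the trophectoderm, while Sph EPI and HYPO were separated by hand. Stage and handling before dissociation therefore cannot be told apart in any comparison of LB cells with another stage. Cells of 1 embryo and label were added up, which gave 41 sums from 28 embryos (M 8, ICM 7, TE 10, LB EPI 4, LB HYPO 5, Sph EPI 4, Sph HYPO 3), and the embryo was the replicate.

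Chaperones bind proteins that are not yet folded or have lost their fold. HSP70 proteins hold short exposed stretches in cycles of ATP hydrolysis, J-domain proteins (DNAJ) bring clients and start hydrolysis, and HSP110 and BAG proteins release the nucleotide and so the client. HSP90 receives clients from HSP70 at a later step of folding, the CCT ring closes around actin, tubulin and other cytosolic clients, and separate sets serve the endoplasmic reticulum (ER) and the mitochondria. Small heat shock proteins hold unfolded proteins without ATP. Many of these genes are targets of the heat shock factor HSF1, and the ER set responds to the unfolded protein response.

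Depth lay between 1012604 and 5696373 counts a cell, with label medians from 1660325.5 (LB HYPO) to 2235586.5 (Sph EPI). The summed level of 7 epiblast markers was 711.6 TPM or more in every EPI embryo and at most 186.3 TPM in every other. The sum of 6 hypoblast markers was 851.6 TPM or more in every HYPO embryo and at most 729.7 TPM in every other. FN1 made up most of the hypoblast sum in HYPO. GATA4 and NID2 had higher medians in both HYPO labels than in any other. GATA6 went the other way, with medians of 263 TPM in M, 86.8 TPM in ICM and 106 TPM in TE. Its medians were 26.9 TPM in LB HYPO and 15.0 TPM in Sph HYPO. PDGFRA and PECAM1 had medians of 91.3 and 75.5 TPM in ICM and 89.2 and 67.3 TPM in LB HYPO. The summed level of the 6 trophectoderm markers did not keep to TE. It was 17308 to 43067 TPM in Sph HYPO beside 1508 to 2518 TPM in LB HYPO and a median of 42729 TPM in TE. KRT8, with a median of 25808.6 TPM, made up most of the Sph HYPO sum. Medians in Sph HYPO and TE were 0 and 106.9 TPM for GATA2 and 0.754 and 126.4 TPM for TFAP2A. They were 28.97 and 94.7 TPM for GATA3, and 202 and 1552 TPM for DAB2. The part of these 6 markers in the Sph HYPO results was not tested. The TE library of embryo E6-ER, a single cell, had 4 of 6 trophectoderm markers (GATA2, GATA3, KRT8, DAB2) at 0, whereas KRT8 was between 12177 and 40165.5 TPM in the other 9 TE embryos. Calls of named members that changed without it are given both ways.

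As a group the 59 members were most abundant in the LB labels. Their summed level per embryo had a lowest, median and highest value of 18324, 21167 and 22594 TPM in M, of 16175, 18004 and 19523 TPM in ICM, and of 16084, 18478 and 21595 TPM in TE. It reached 26845, 39854 and 52257 TPM in LB EPI and 47593, 57214 and 64728 TPM in LB HYPO, and was 21801, 22691 and 25478 TPM in Sph EPI and 20575, 26258 and 28577 TPM in Sph HYPO. Every LB embryo lay above every M, ICM, TE and Sph EPI embryo, and only LB EPI embryo AQ fell within the Sph HYPO range.

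HSPH1, an HSP110 protein that exchanges nucleotide on HSP70, separated the LB embryos from all the others by its mean level. Its mean TPM per embryo was 3029 in AN, 4735 in AO, 3484 in AP and 1923 in AQ in LB EPI, and 2761 in AL, 2261 in AM, 2960.3 in AN, 3705 in AO and 2671 in AP in LB HYPO. In M it had a lowest, median and highest value of 158, 210.0 and 334 TPM, in ICM of 77.7, 98.2 and 239 TPM, and in TE of 83.7, 142 and 249.8 TPM. The Sph EPI embryos C, D, E and F had 370.2, 293, 462 and 360.1 TPM, and the Sph HYPO embryos C, E and F had 749, 1266 and 172 TPM. All 9 LB values lay above all 32 others, although single cells overlapped, from 214.7 TPM upwards in LB EPI and up to 1346 TPM in Sph HYPO. Of the 59 members HSPH1 alone had this pattern, as did 4 of 14721 tested genes (0.0272%), the others being NUDC, STIP1 and ZFAND2A. HSPH1 was 25.1-fold higher in LB EPI than in ICM (log2 fold change 4.65 ± 0.38 SE, adjusted p = 2.41e-11, edgeR quasi-likelihood test with Benjamini-Hochberg adjustment over all 14721 genes) and 21.8-fold higher in LB HYPO than in ICM (4.44 ± 0.37, adjusted p = 3.92e-11).

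**Figure D1:**
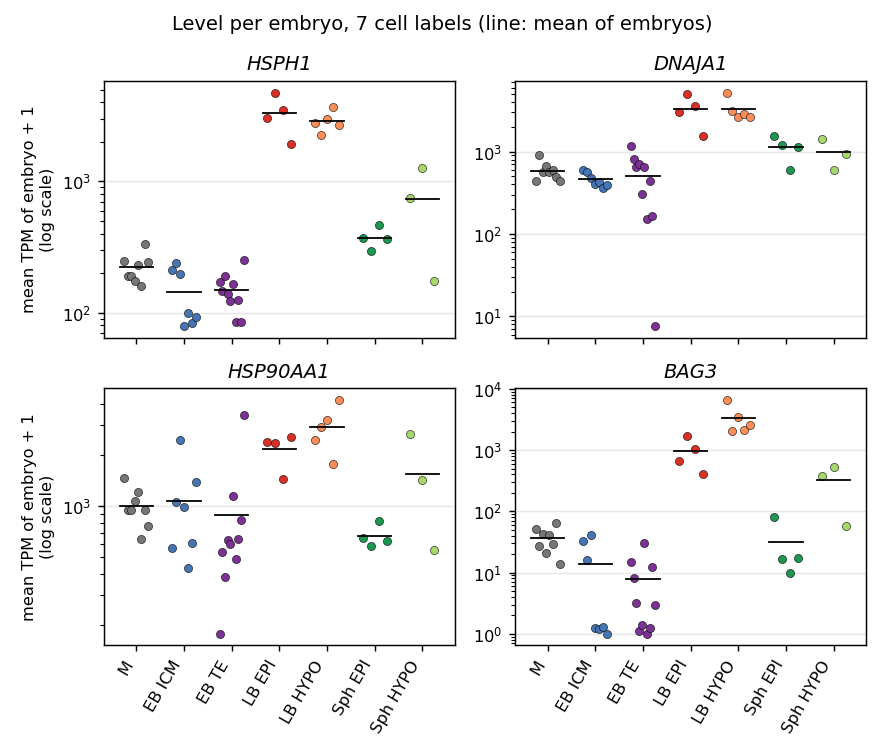
Mean TPM per embryo (log scale) of HSPH1, DNAJA1, HSP90AA1 and BAG3 in the 7 labels, as TPM + 1, with 1 point for each embryo and label and a line at the mean of embryos. HSPH1 lies at 1923 TPM or above in every LB embryo and at 1266 TPM or below in every other, whereas HSP90AA1 overlaps between labels.

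BAG3, which links HSP70 to small heat shock proteins and to selective autophagy, rose in both LB labels from a low level. It had 672, 1712.5, 1038 and 399.8 TPM in the LB EPI embryos AN, AO, AP and AQ, and 6559.6, 2047, 3504, 2090.5 and 2561 TPM in the LB HYPO embryos AL, AM, AN, AO and AP. Lowest, median and highest values were 12.7, 34.4 and 63.9 TPM in M, 0, 0.274 and 39.8 TPM in ICM, and 0, 2.07 and 29.9 TPM in TE. The LB and ICM ranges were far apart, and the highest LB HYPO value came from AL, which is a single cell. BAG3 was over TPM 1 in 23 of 25 LB EPI and 36 of 36 LB HYPO cells against 11 of 24 ICM and 6 of 28 TE cells. The log2 fold change was 6.32 ± 1.22 for LB EPI over ICM (adjusted p = 0.00125) and 7.99 ± 1.29 for LB HYPO over ICM (adjusted p = 0.000114).

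DNAJA1, a farnesylated J-domain partner of cytosolic HSP70, rose in both LB lineages. Its LB EPI embryos had 3052, 5072, 3623 and 1567 TPM in the order AN, AO, AP and AQ, its LB HYPO embryos had 5195, 3112, 2640.2, 2890.3 and 2615 TPM in the order AL to AP, and its ICM embryos ran from 365 to 591 TPM with a median of 425 TPM. No LB value reached down into the ICM range, and AQ was the lowest. The rise was 6.89-fold in LB EPI (2.78 ± 0.53, adjusted p = 0.00106) and 7.27-fold in LB HYPO (2.86 ± 0.51, adjusted p = 0.000576). HSP90AA1, the inducible cytosolic HSP90, moved less. It had 2378, 2339.9, 1446 and 2546 TPM in LB EPI, 2436, 2915, 3192, 1765 and 4209 TPM in LB HYPO, and 435, 987 and 2438 TPM as lowest, median and highest values in ICM. The highest ICM embryo lay within the LB ranges. HSP90AA1 passed the test in LB HYPO over ICM (1.57 ± 0.40, adjusted p = 0.0221) but not in LB EPI over ICM (1.14 ± 0.42, adjusted p = 0.0887), where it passed without the TE library E6-ER (1.20, adjusted p = 0.0352) or ICM embryo AD (1.48, adjusted p = 0.0334). The LB HYPO call was lost, with adjusted p between 0.0522 and 0.0665, when ICM embryo AA, AF or AG or LB HYPO embryo AP was left out.

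Over the family, 11 of 59 members were higher in LB EPI than in ICM, where 3.87% of all tested genes were, and 0 were lower, where 1.26% of all genes were. In LB HYPO 17 of 59 were higher than in ICM (1.63% of all genes) and 0 were lower (0.924%). Lower members numbered 3 in each comparison at an unadjusted p under 0.05. In either direction 18 members passed in LB EPI and 26 in LB HYPO, beside 3388 and 3065 of 14721 genes. DESeq2 called 12 higher and 1 lower in LB EPI (684 and 644 of 14021 genes), and 19 and 2 in LB HYPO (601 and 649). With limma on log2(TPM + 1), 13 were higher and 0 lower in LB EPI (912 and 612 of 14721 genes). In LB HYPO limma called 17 higher and 1 lower, beside 988 of 14721 genes in either direction. The median log2 fold change of the 59 members was 0.39 in LB EPI and 0.79 in LB HYPO, beside 0.08 and 0.00 for all tested genes. These comparisons share the ICM samples, and embryos AN, AO and AP gave cells to both LB labels, so that they are not independent. Apart from the test, 12 members had every LB EPI embryo above every ICM embryo (4.13% of all genes) and 15 had every LB HYPO embryo above every ICM embryo (2.29%). The sample titles began with 8 different prefixes, which cut across the labels and are called pools here. What the prefixes stand for was not stated. Embryos AM, AO, AP and AQ, among others, had cells in both the first 4 and the last 4 pools, so that these sets are not independent. Within the first 4 and the last 4 pools the log2 fold change over ICM was 4.31 and 4.92 for HSPH1 in LB EPI and 3.87 and 5.12 in LB HYPO. BAG3 had 6.03 and 6.86 in LB EPI and 7.54 and 8.21 in LB HYPO. DNAJA1 had 3.23 and 2.64 in LB EPI and 3.06 and 2.77 in LB HYPO, where the last value did not pass (adjusted p = 0.0666). HSP90AA1 had 1.35 and 1.61 in LB EPI, neither past the test, and 1.55 and 2.27 in LB HYPO, where the last did not pass (adjusted p = 0.0508).

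Among the other J-domain proteins, DNAJB1, the J protein of the classical heat shock response, had the largest increase relative to its error. The LB EPI embryos AN, AO, AP and AQ had 1924, 4371, 3144 and 609 TPM, the LB HYPO embryos AL to AP had 6189, 4349, 2513, 3878 and 7258 TPM, and ICM lay between 75.8 and 213 TPM with a median of 119 TPM. All LB embryos were above all ICM embryos. DNAJB1 was 20.01-fold higher in LB EPI (4.32 ± 0.48, adjusted p = 1.00e-07) and 39.7-fold higher in LB HYPO (5.31 ± 0.49, adjusted p = 3.82e-10). DNAJB4, a related J protein, passed the test in both LB labels (7.08 ± 1.95, adjusted p = 0.0272, and 6.55 ± 1.88, adjusted p = 0.0475) on 60 ICM counts in all, and lost the call when any of 6 (LB EPI) or 23 (LB HYPO) of the 41 libraries was left out, with the smallest LB HYPO value without LB HYPO embryo AO (5.39, adjusted p = 0.114). Its LB levels were uneven, at 0, 167, 123 and 11.1 TPM in LB EPI and 1.40, 92.8, 0, 148 and 0.603 TPM in LB HYPO, and overlapped with ICM.

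HSPA8, the constitutive cytosolic HSP70, had 896, 1292, 804 and 117 TPM in LB EPI, 761, 1005, 475, 1018 and 837 TPM in LB HYPO, and 66.7, 246 and 392 TPM as lowest, median and highest ICM values. The LB HYPO embryos all lay above ICM, and LB EPI embryo AQ lay inside its range. HSPA8 was higher in LB EPI (1.73 ± 0.45, adjusted p = 0.0207) and in LB HYPO (1.92 ± 0.43, adjusted p = 0.00882), and the LB EPI call was lost without LB EPI embryo AO (adjusted p = 0.0877) or AP (adjusted p = 0.0531). Neither call passed within the first 4 or the last 4 pools. The LB EPI call was also lost with only the labels compared and with limma on log2(TPM + 1) or log2(TPM + 0.1). HSPA4, a second HSP110 protein, ran from 691 to 890 TPM in LB EPI and from 501.8 to 713 TPM in LB HYPO, above the 116 to 400 TPM of ICM. Its log2 fold change was 1.42 ± 0.27 (adjusted p = 0.00122) and 1.05 ± 0.26 (adjusted p = 0.0192, and 0.0501 without LB HYPO embryo AP). HSPB8, the small heat shock protein that works with BAG3, had 147, 1307, 314.5 and 103 TPM in LB EPI and 571, 548, 1679, 311.5 and 212 TPM in LB HYPO, against at most 10.1 TPM in any M and 6.88 TPM in any ICM embryo. No LB embryo overlapped with M or ICM. HSPB8 was over TPM 1 in 19 of 25 LB EPI cells and 34 of 36 LB HYPO cells, but in 5 of 47 M, 1 of 24 ICM and 3 of 28 TE cells. Its log2 fold change over ICM, which had 74 counts in all, was 8.75 ± 2.01 (adjusted p = 0.00727) in LB EPI and 9.52 ± 2.05 (adjusted p = 0.00503) in LB HYPO.

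HSP90AB1, the constitutive cytosolic HSP90, changed by a smaller amount with little spread. It ran from 912 to 1574 TPM in LB EPI, from 919 to 1582 TPM in LB HYPO and from 231 to 642 TPM in ICM. Neither LB range overlapped with ICM. The Sph EPI embryos, at 942 to 1045 TPM, lay inside both LB ranges. The log2 fold change was 1.37 ± 0.22 (adjusted p = 9.45e-05) in LB EPI and 1.46 ± 0.21 (adjusted p = 1.42e-05) in LB HYPO.

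HSPA5 and HSP90B1, which work in the ER, rose in both LB labels, and DNAJB11 in LB HYPO. HSPA5 (BiP), the ER member of the HSP70 family, had 4621, 7348, 8561 and 3063 TPM in LB EPI and 7159, 5355, 14881, 10688 and 16865 TPM in LB HYPO, and its lowest, median and highest ICM values were 106, 654 and 1617.5 TPM. Every LB embryo was above every ICM embryo. HSPA5 was 7.76-fold higher in LB EPI (2.96 ± 0.52, adjusted p = 0.000393) and 15.6-fold higher in LB HYPO (3.97 ± 0.52, adjusted p = 4.32e-06). HSP90B1 (GRP94), the ER member of the HSP90 family, had 700.7, 1496, 1171 and 902 TPM in LB EPI, 1854, 2363, 2759, 1762 and 2196 TPM in LB HYPO, and 221 to 444 TPM in ICM. The 3 ranges did not overlap. M (257 to 1238 TPM), TE (76.9 to 1013 TPM), Sph EPI (313 to 768 TPM) and Sph HYPO (679 to 930 TPM) overlapped with LB EPI but not with LB HYPO. Its log2 fold change was 1.74 ± 0.42 in LB EPI (adjusted p = 0.0104, and 0.0534 without LB EPI embryo AO) and 2.81 ± 0.41 in LB HYPO (adjusted p = 1.98e-05). DNAJB11, the ER J protein that serves HSPA5, had 736, 547, 1118.5, 845.5 and 893 TPM in LB HYPO, 131, 283, 375 and 299 TPM in LB EPI, and at most 181 TPM in ICM. Only its LB HYPO embryos lay entirely above ICM. DNAJB11 rose in LB HYPO (3.01 ± 0.81, adjusted p = 0.0330), a call lost at adjusted p between 0.0502 and 0.0670 without ICM embryo AD, AE, AF or AG or LB HYPO embryo AN, AO or AP, and its LB EPI value was 1.35 ± 0.82 (adjusted p = 0.358).

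**Figure D2:**
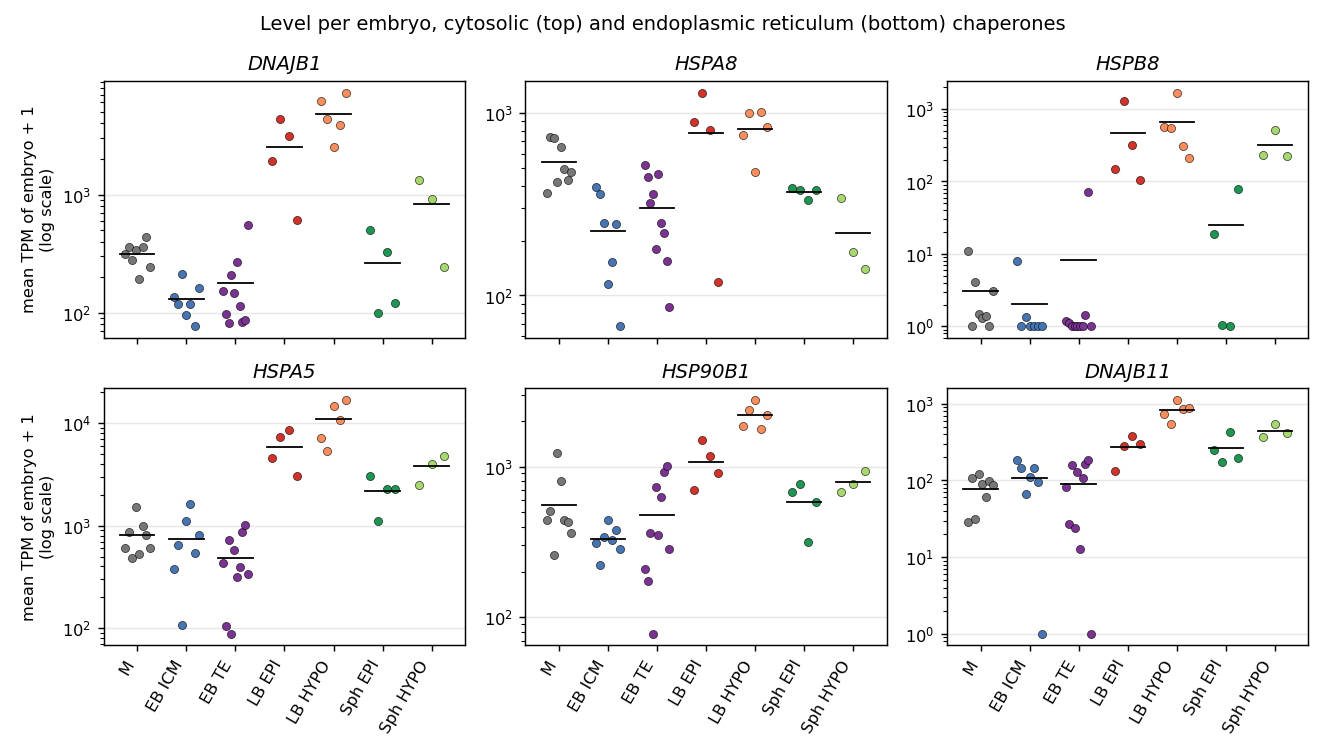
Mean TPM per embryo (log scale) of further chaperones in the 7 labels as TPM + 1, with 1 point for each embryo and label and a line at the mean of embryos. The upper row holds cytosolic and the lower row ER chaperones. DNAJB1 and HSPA5 lie above ICM in every LB embryo, at 609 and 3063 TPM or more, and HSPB8 is at most 10.1 TPM in M and 6.88 TPM in ICM.

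The mitochondrial pair HSPD1 and HSPE1, the subunits of the matrix folding chamber and of its lid, was higher in LB HYPO than in ICM. HSPD1 had 6059, 2721, 3639, 2631 and 2411 TPM in LB HYPO, 2538, 2320, 1682 and 1202 TPM in LB EPI, and 1124 to 2393 TPM in ICM. HSPE1 had 8613, 7692, 6147, 7907 and 7556 TPM in LB HYPO, 5437, 6738, 3971 and 2605 TPM in LB EPI, and 2206 to 4980 TPM in ICM. Both were entirely above ICM in LB HYPO and overlapped with it in LB EPI. In M, HSPD1 ran from 1830 to 3413 TPM and HSPE1 from 3899 to 6159 TPM, so that M and LB HYPO overlapped. LB HYPO was not tested against M. The highest LB HYPO value of each came from AL, a single cell. For LB HYPO over ICM the log2 fold change was 0.97 ± 0.21 for HSPD1 (adjusted p = 0.00423) and 1.10 ± 0.26 for HSPE1 (adjusted p = 0.0118), and for LB EPI over ICM it was 0.06 ± 0.22 (adjusted p = 1) and 0.32 ± 0.28 (adjusted p = 0.605). The LB HYPO calls of HSPD1 and HSPE1 were lost in sums of at least 2 cells and in the last 4 pools. HSPA9, the mitochondrial HSP70, had label means between 911 (Sph EPI) and 1464 TPM (M), and log2 fold changes over ICM of -0.18 ± 0.20 in LB EPI and -0.08 ± 0.19 in LB HYPO, neither past the test.

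Of the subunits of the cytosolic CCT ring, CCT2, CCT3, CCT4, CCT7 and CCT8 stayed close to one another in level. Their mean levels were 818 to 1135 TPM in ICM and 1354 to 1916 TPM in LB HYPO. The highest of the 5 was between 1.34 (M) and 1.67 times (Sph EPI) the lowest within a label. CCT7 was 0.99 ± 0.25 (adjusted p = 0.0192) and CCT8 0.84 ± 0.22 (adjusted p = 0.0256) higher on the log2 scale in LB HYPO than in ICM. The CCT7 call was lost without LB HYPO embryo AO (adjusted p = 0.0677), and the CCT8 call without ICM embryo AD or AF or LB HYPO embryo AM or AO (adjusted p between 0.0606 and 0.0752). CCT8 had no overlap, with 1552 to 2213 TPM in LB HYPO and 733 to 1436 TPM in ICM, whereas CCT7 overlapped, with 1132 to 1986 TPM and 411 to 1478 TPM. CCT2, CCT3 and CCT4 had values of 0.45 to 0.72 in LB HYPO and did not pass, and all 5 were between 0.07 and 0.82 in LB EPI without passing. CCT7 passed in LB EPI when any of 8 libraries was left out, among them the TE library E6-ER (0.89, adjusted p = 0.0276). CCT6B, a testis-type subunit, and CCT8L2 were nearly absent, with label means of at most 17.2 and 1.09 TPM. TCP1, the subunit whose symbol falls outside the rule, was higher in LB EPI (1.68) and in LB HYPO (1.37) than in ICM.

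**Figure D3:**
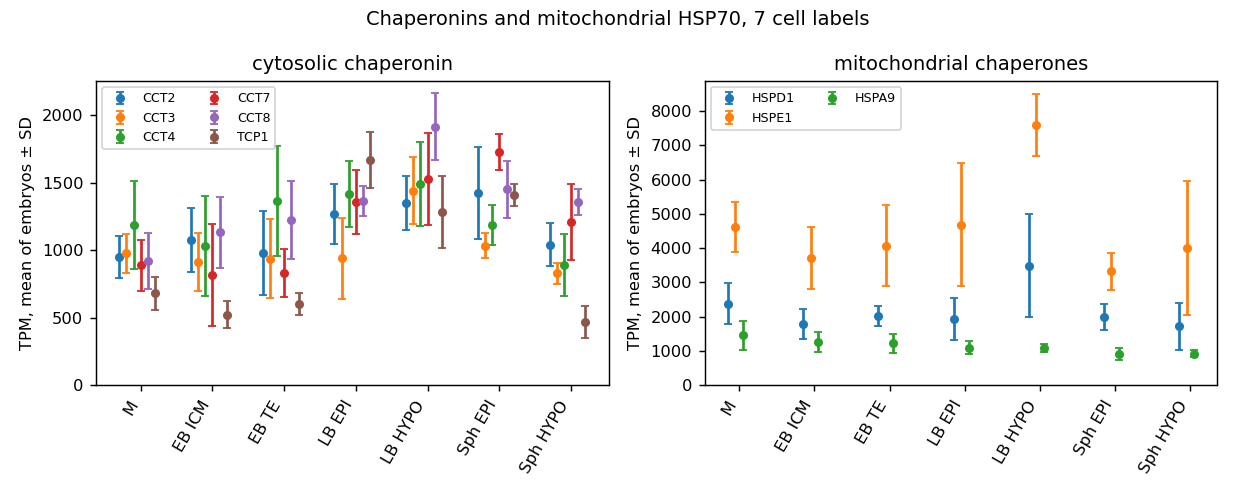
Mean TPM over embryos ± SD in the 7 labels, for 5 CCT subunits and TCP1 (left) and for HSPD1, HSPE1 and HSPA9 (right). The mean levels of CCT2, CCT3, CCT4, CCT7 and CCT8 lie within 1.67-fold of each other in every label, and HSPE1 is highest in LB HYPO.

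From LB to Sph, HSPH1 and DNAJB1 fell in EPI. There 2 of 59 members fell (0.102% of all genes) and 0 rose (0.0408%). At an unadjusted p under 0.05, 2 were higher, and 9 of 59 members and 1684 of 14721 genes passed in either direction. DESeq2 called 2 higher and 4 lower (207 and 251 of 14021 genes). With limma on log2(TPM + 1), 0 were higher and 5 lower (488 and 210 of 14721 genes). HSPH1 fell by 3.04 ± 0.45 on the log2 scale, which is 8.20-fold lower (adjusted p = 0.000168). DNAJB1, at 495, 98.7, 327 and 120 TPM in the Sph EPI embryos C, D, E and F, also fell by 3.04 ± 0.56 (adjusted p = 0.00775), a call lost without LB EPI embryo AO (adjusted p = 0.0623) or Sph EPI embryo D (adjusted p = 0.0622). BAG3 had 79.4, 15.7, 8.68 and 16.5 TPM in Sph EPI, all below its LB EPI values, with a log2 fold change of -4.81 ± 1.45 that did not pass (adjusted p = 0.280). HSP90AA1 had 652, 583, 822 and 622 TPM in Sph EPI, all below LB EPI (-1.52 ± 0.49, adjusted p = 0.319), and DNAJA1 had 1569, 1207, 606 and 1141 TPM and overlapped with LB EPI by embryo AQ (-1.27 ± 0.62, adjusted p = 0.424). The median over the 59 members was -0.02, beside 0.03 for all genes.

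In HYPO, 0 of 59 members passed in either direction between Sph and LB by edgeR (0.0611% of all genes were higher and 0.0883% lower). At an unadjusted p under 0.05, 1 was higher and 12 lower, and 1506 of 14721 genes passed in either direction. DESeq2 called 1 higher and 7 lower (252 and 627 of 14021 genes). With limma on log2(TPM + 1), 0 were higher and 6 lower (322 and 204 of 14721 genes). HSPH1 (-1.94 ± 0.47) and DNAJB1 (-2.52 ± 0.60) were both at an adjusted p of 0.0689. DNAJB1 had 1332, 912.5 and 242 TPM in the Sph HYPO embryos C, E and F, all below LB HYPO. DNAJA1 (1424, 594 and 946 TPM) and BAG3 (380.3, 521 and 55.8 TPM) were likewise below LB HYPO in each Sph HYPO embryo, at -1.64 ± 0.67 (adjusted p = 0.416) and -3.30 ± 1.499 (adjusted p = 0.453). HSP90AA1 had 2649, 1434 and 549.6 TPM and overlapped with LB HYPO (-0.85 ± 0.51, adjusted p = 0.542). The median of the members was -0.70, beside -0.11 for all genes. DNAJB1 passed without the TE library E6-ER (-2.49, adjusted p = 0.0357) or Sph EPI embryo C (-2.54, adjusted p = 0.0491), and HSPH1 passed without Sph HYPO embryo E (-2.57, adjusted p = 0.0425) or TE embryo AI (-1.94, adjusted p = 0.0444). HSPB8 was over TPM 1 in all 12 Sph HYPO cells, at 232, 512 and 221 TPM in C, E and F, while Sph EPI had 17.9, 0.0317, 0 and 77.5 TPM.

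Between the lineages of a stage few members differed. HSPD1 was lower in LB EPI than in LB HYPO (-0.92 ± 0.24, adjusted p = 0.0469), with overlapping embryos, as 1 of 59 (0.516% of all genes). Higher members were 0 of 59 (0.639%). At an unadjusted p under 0.05, 2 were higher and 7 lower, and 2707 of 14721 genes passed in either direction. DESeq2 called 2 higher and 3 lower (558 and 497 of 14021 genes). With limma on log2(TPM + 1), 1 was higher and 2 lower (785 and 497 of 14721 genes). With the embryo as a block, 0 members passed, and the HSPD1 call was lost when any of 19 of the 41 libraries was left out. HSPH1 differed by 0.20 ± 0.39 between the LB lineages (adjusted p = 0.933) and DNAJA1 by -0.08 ± 0.58 (adjusted p = 1). BAG3 was lower in every LB EPI embryo than in every LB HYPO embryo without passing the test (-1.68 ± 1.23, adjusted p = 0.542). HSP90AA1 was at -0.43 ± 0.46 (adjusted p = 0.758). In Sph embryos 0 of 59 members passed in either direction between EPI and HYPO by edgeR (0.183% of all genes were higher and 0.462% lower). At an unadjusted p under 0.05, 4 were higher and 4 lower. In either direction these were 8 of 59 members, beside 2048 of 14721 genes. DESeq2 called 4 higher and 1 lower (713 and 381 of 14021 genes). With limma on log2(TPM + 1), 0 were higher and 4 lower (868 and 486 of 14721 genes). The values were -0.89 ± 0.45 for HSPH1, -3.19 ± 1.39 for BAG3, 0.30 ± 0.66 for DNAJA1 and -1.09 ± 0.52 for HSP90AA1. Whether the change from LB to Sph differed between EPI and HYPO was tested as a difference of differences. There 0 of 59 members passed (0.034% of all genes). At an unadjusted p under 0.05 there were 4 of 59 members and 1359 of 14721 genes. DESeq2 called 4 members (618 of 14021 genes) and limma on log2(TPM + 1) called 1 (477 of 14721).

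Before the LB stage few members were called. DNAJB1 was lower in ICM than in M (-1.37 ± 0.39, adjusted p = 0.0474), as 1 of 59 (1.03% of all genes), with 191, 326.5 and 434 TPM as lowest, median and highest values in M and overlap with ICM. DNAJC22, a membrane J protein, was called higher as 1 of 59 (1.71%). It had 130 counts in 3 of 7 ICM embryos and 0 in all 8 M embryos, which is at least 83.1-fold against a floor of 3 counts over the group. The DNAJB1 call was lost when any of 22 and the DNAJC22 call when any of 11 of the 41 libraries was left out. Without the TE library E6-ER, HSPA8 was also lower in ICM than in M (-1.27, adjusted p = 0.0383). ICM over TE called 4 of 59 members, near the 4.5% of all genes, and 0 lower (1.38%). At an unadjusted p under 0.05, 3 were lower, and 9 of 59 members and 3041 of 14721 genes passed in either direction. DESeq2 called 2 lower (444 of 14021 genes) and limma on log2(TPM + 1) called 0 (178 of 14721). The 4 members called by edgeR were CCT6B (516 counts in 4 ICM embryos), DNAJC28 (422 counts, 411 of them from embryo AF), DNAJC27 (205 counts, all from AA) and CCT8L2 (111 counts in 2). Each was at 0 in all 10 TE embryos. Of these, 0 passed with the embryo as a block and 3 without the TE library E6-ER, when CCT8L2 was lost (adjusted p = 0.0569). HSPH1, DNAJA1, HSP90AA1 and BAG3 were not called in ICM against M or TE.

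Averaged over LB and Sph, EPI against M and ICM gave 15 of 59 members higher (12.7% of all genes) and 2 lower (5.93%). The largest increases were in HSPB8 (6.23 ± 1.26, adjusted p = 0.000529), DNAJB4 (5.37 ± 1.26, adjusted p = 0.00237) and DNAJC22, which was at 0 in M. HSPH1 (2.76 ± 0.25, adjusted p = 2.22e-10), DNAJA1 (1.96 ± 0.36, adjusted p = 0.000177) and BAG3 (3.21 ± 0.76, adjusted p = 0.00248) also rose, and this average joins LB and Sph values that differed in HSPH1. In Sph EPI alone BAG3 lay at 8.68 to 79.4 TPM, overlapping with the 12.7 to 63.9 TPM of M. CCT2, CCT7 and CCT8 rose by 0.48 to 0.97, with CCT2 lost without LB EPI embryo AN (adjusted p = 0.0541) or Sph EPI embryo F (adjusted p = 0.0718). Without the TE library E6-ER, DNAJB11 (1.60, adjusted p = 0.0130) and DNAJC19 (0.69, adjusted p = 0.0474) passed as well. The members that fell were DNAJC11, a mitochondrial J protein (-1.58 ± 0.46, adjusted p = 0.0135), and DNAJC13, an endosomal one (-1.56 ± 0.41, adjusted p = 0.00659). DNAJC11 had a median of 177 TPM in M, 98.4 TPM in ICM, 65.7 TPM in LB EPI and 38.5 TPM in Sph EPI, and DNAJC13 had 55.1, 55.9, 21.01 and 12.3 TPM in the same order.

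**Figure D4:**
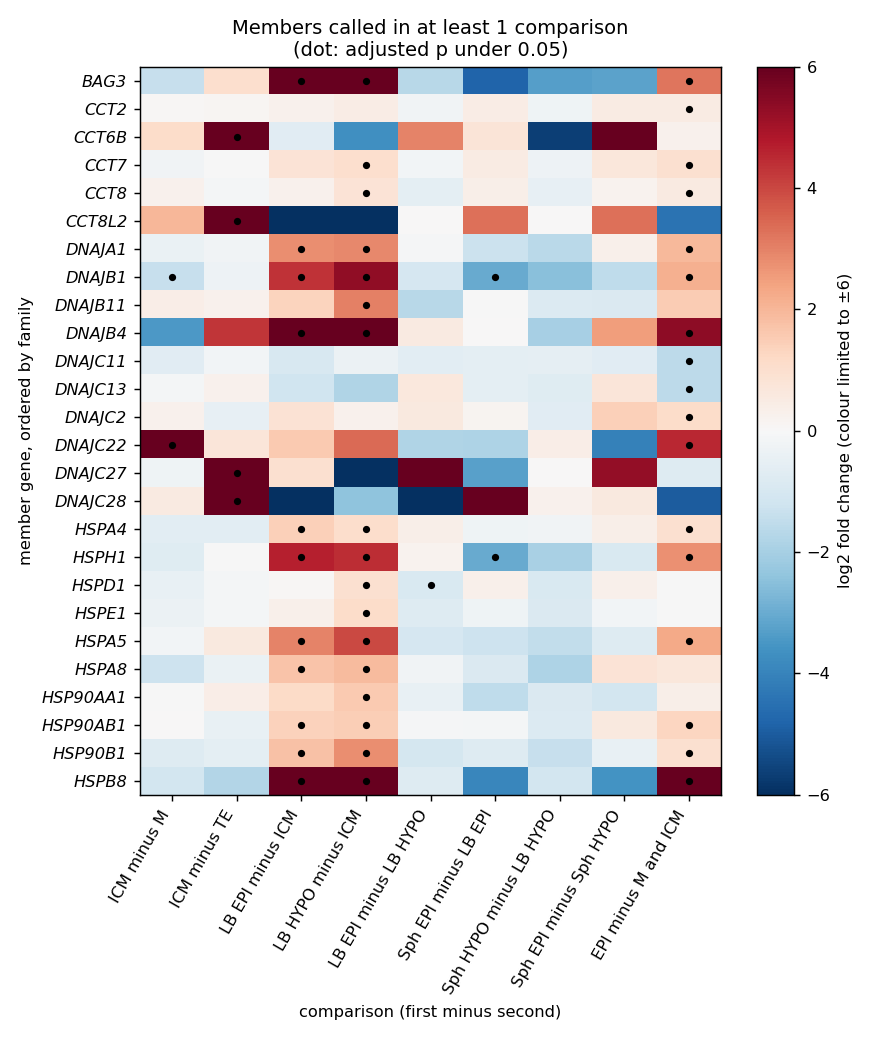
Log2 fold changes of the 26 members called in at least 1 of 9 comparisons, with 1 row for each gene, 1 column for each comparison, colour limited to 6 in either direction and a dot where the adjusted p is under 0.05. The share of all genes called in at least 1 of the 9 comparisons was not computed, so that 26 cannot be set against it. There are 11 dots for LB EPI over ICM, 17 for LB HYPO over ICM and 17 for EPI over M and ICM, and several of the deepest colours belong to genes of few counts such as DNAJC27, DNAJC28 and CCT8L2.

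Among the DNAJC members, DNAJC19, a part of the mitochondrial import motor and the most abundant DNAJC member, had all LB EPI embryos (544 to 786 TPM) above all ICM (265 to 507.9 TPM) and all LB HYPO embryos (214 to 393 TPM), and its log2 fold change over ICM did not pass (0.85 ± 0.40, adjusted p = 0.193). DNAJC13 was at -1.82 ± 0.55 in LB HYPO over ICM (adjusted p = 0.0605), and was called there without TMM (-1.97, adjusted p = 0.0422), by DESeq2 (-1.77, adjusted p = 0.00510), by limma at either pseudocount and without Sph HYPO embryo E or F. Across the 7 labels 29 of 59 members differed at an adjusted p under 0.05, while 37.7% of all tested genes did.

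Genes that work with the members were taken from lists. Of 20 tested heat shock factors and HSP90 and HSP70 partners, 4 were higher in both LB labels than in ICM. They were STIP1, which passes clients from HSP70 to HSP90 (2.17 in LB EPI and 2.07 in LB HYPO), the HSP90 co-chaperones CHORDC1 (2.12 and 2.04) and NUDC (2.03 and 2.01), and the immunophilin FKBP4 (1.88 and 2.39). The list had a median of 0.60 in LB EPI and 0.45 in LB HYPO, beside 0.08 and 0.00 for all genes. HSF1 and HSF2 themselves were not called. HSF1 label means lay between 10.9 and 23.1 TPM, and HSF2 had 36.3 to 82.9 TPM in LB EPI and at most 20.8 TPM in LB HYPO. Of 10 tested chaperonin and prefoldin genes TCP1 alone was called against ICM, and it fell from LB HYPO to Sph HYPO (-1.43, adjusted p = 0.00356). Of 15 tested ER folding genes CALR, a lectin chaperone, alone passed the test in LB HYPO over ICM (1.63). The list's summed level was 9749 to 13487 TPM in LB HYPO without overlap with the 3184 to 4912 TPM of ICM, and its median was 1.59, against 0.09 in LB EPI. Of 7 tested mitochondrial folding genes none was called in any comparison, and their median over ICM was 0.04 in LB EPI and 0.55 in LB HYPO.

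A list of genes that respond early to handling was measured beside these results. Its 10 tested genes had a summed level of 132 to 716 TPM in ICM, 238 to 1501 TPM in LB EPI, 307 to 1683 TPM in LB HYPO, 216 to 400 TPM in Sph EPI and 256 to 585 TPM in Sph HYPO. The ranges overlapped, and the list's median log2 fold change over ICM was 1.62 in LB EPI and 1.88 in LB HYPO. MYC alone of the list was called (7.01 and 8.90), on an ICM level of at most 4.499 TPM. The part of handling in the chaperone levels was not tested.

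Within LB EPI cells the members did not all vary together. Over 25 cells, Pearson's r of log2(TPM + 1) was 0.78 between HSPH1 and DNAJA1, 0.67 between HSPH1 and BAG3 and 0.64 between DNAJA1 and BAG3. HSP90AA1 had r of -0.11 with HSPH1 and -0.16 with DNAJA1, which came to 0.36 and 0.29 over the 15 cells without embryo AQ. Centred on each embryo's mean, the first 3 pairs had r of 0.70, 0.56 and 0.43. A group chosen after its values were seen, HSPH1, DNAJA1, BAG3, DNAJB1 and HSPA8, had a median r of 0.70 over 10 pairs in LB EPI (0.50 centred) and of 0.14 over 36 LB HYPO cells (0.10 centred). Cells of 1 embryo are not independent and differ in depth, and the values are a description. HSPH1 ran from 214.7 to 8509 TPM over single LB EPI cells and from 980.5 to 6494 TPM over LB HYPO cells.

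**Figure D5:**
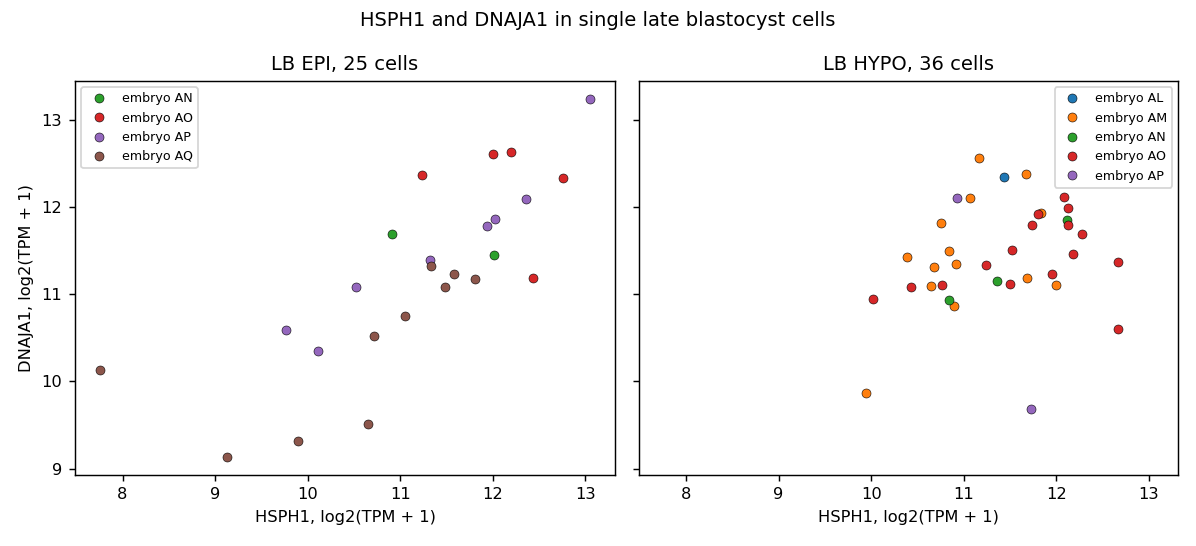
DNAJA1 against HSPH1 in single LB cells, both as log2(TPM + 1), with 1 point for each cell and colours for embryos. In LB EPI (left) both run together (r of 0.78 over 25 cells), with the lowest HSPH1 values in cells of embryo AQ, and LB HYPO is on the right.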

How the data were processed

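Full-length single-cell libraries (Smart-seq2) of 220 pig embryo cells were analysed. The authors deposited 2 tables over 22840 entries, whole-number read counts and TPM values. Per the study's methods, adapters were removed with scythe, reads were trimmed with sickle and aligned with HISAT2 2.1.0 to the pig genome, and uniquely mapped reads were counted per Ensembl gene with HTSeq. Entries with a symbol held 75.3% of counts. Counts ranged from 1012604 to 5696373 per cell, so that low genes rest on few reads, and intervals and floors cover counting error only.

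Groups were the cell type labels, and embryos were read from the letters of cell identifiers. Deposited counts were summed per embryo and label (41 sums, 6 of 1 cell, at most 19 cells; 1 morula cell without an embryo was left out of sums). The 14721 genes that exceeded a TPM of 1 in 3 or more cells were fitted in edgeR 4.0.16 (R 4.3.3) with TMM scaling, glmQLFit and glmQLFTest over all 7 labels, without a block, with Benjamini-Hochberg adjustment over all genes and a threshold of 0.05. The SE is the absolute log2 fold change divided by the square root of F. The study compared single cells, whereas embryos are the replicates here. The fits were tested on simulated counts. Embryos shared by labels pair some sums. Same-embryo sums had a median correlation of their deviations of 0.05 (ICM and TE, 7 pairs), 0.02 (LB, 3 pairs) and 0.06 (Sph, 3 pairs), and the embryo as a block was an alternative, as were DESeq2 1.42.0, limma 3.58.1 on log2(TPM + 1) and log2(TPM + 0.1), other scalings, filters and subsets, and each library left out.

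The members and lists were chosen with earlier results of these data known. By rule, the members named were HSPH1, DNAJA1, HSP90AA1 and BAG3, the 3 called members with the largest change in each direction of a comparison, the most abundant member of each family and the CCT subunits. Other members described singly, among them HSP90AB1, HSP90B1, HSPA4, HSPA8, HSPA9, HSPD1 and DNAJB11, were chosen after their values were seen. No sequences are given.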

Additional observations from a re-analysis of the deposited data

Results flagged for a closer look

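In 60 groups of 4 to 10 embryos, the gap of the highest or lowest embryo to its neighbour was tested against the range of the group for the members with values given per embryo. Chance marks about 1 in 20 such groups, and 9 were marked, each by its highest embryo. DNAJA1 reached 5195 TPM in LB HYPO embryo AL, a single cell, beside a median of 2890.3 TPM. BAG3 reached 29.9 TPM in TE embryo AF (median 2.07) and 79.4 TPM in Sph EPI embryo C (median 16.1). HSPB8 stood out in 4 labels, at 10.1 TPM in M embryo ER (median 0.436), 6.88 TPM in ICM embryo AA (median 0), 70.8 TPM in TE embryo AI (median 0) and 1679 TPM in LB HYPO embryo AN (median 548). The single TE cell of embryo E6-ER, whose trophectoderm markers were at or near 0 apart from TFAP2A, held the highest TE values of HSP90AA1 (3431 TPM, median 614) and DNAJB1 (552 TPM, median 131).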

How the results depend on the processing

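The tally here covers the log2 fold changes of called members named above, without HSPA4, CCT2, CCT7, CCT8 and CCT8L2. Of its alternative values, 2187 kept their direction and their side of the threshold, 193 did not pass, and 0 reversed. Outside it, the ICM over TE call of CCT8L2 was lost when any of 18 libraries was left out. The LB HYPO over ICM call was lost without any of 4 libraries for CCT8, and without 1 each for CCT7 and HSPA4. The CCT2 call in EPI over M and ICM was lost without either of 2. DNAJC27 in ICM against TE, with all its counts in ICM embryo AA, had no change left without that embryo. HSPH1, BAG3, DNAJB1, HSPA5, HSPB8 and HSP90AB1 passed for both LB labels over ICM in all 54 alternatives. The cause of the differences below was not tested, apart from fewer sums in a subset.

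Members called in ICM against M, 2 of 59, became 1 without TMM, with RLE factors or with only the labels compared, 0 in the first or last 4 pools and with limma at either pseudocount, and 4 with DESeq2. The last 4 pools gave 17 across the 7 labels (29 as reported) and 7 in LB HYPO against ICM (17). Sph EPI against LB EPI, 2, gave 5 with limma at either pseudocount and 6 with DESeq2. Sph HYPO against LB HYPO, 0, gave 1 without the cells of less certain embryo, 3 with only the labels compared, 6 and 2 with limma at pseudocounts 1 and 0.1, and 8 with DESeq2. ICM against TE, 4, gave 0 in sums of at least 2 cells, in either set of pools, with only the labels compared, with limma at either pseudocount, and with the embryo as a replicate block. LB EPI against LB HYPO, 1, gave 0 without TMM, with RLE factors, without a filter, with filterByExpr, in sums of at least 2 cells, without the cells of less certain embryo, with the morula cell that has no embryo added, in the first or the last pools, or when a replicate block for the embryo was added, 2 with only the labels compared, 3 and 2 with limma, and 5 with DESeq2. Sph EPI against Sph HYPO, 0, gave 4 and 2 with limma and 5 with DESeq2, and the difference of differences, 0, gave 1 and 1 with limma and 4 with DESeq2. Both stayed at 0 with the embryo block, which was fitted for these 4 comparisons between labels that share embryos and changed the counts of ICM against TE and LB EPI against LB HYPO. The median r of the 4 markers in LB EPI, 0.27, was 0.47 without embryo AQ, an alternative chosen after seeing the data, as was centring on the embryo (0.21).

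Leaving out 1 library gave 25 to 29 across the labels, 0 to 3 for ICM against M, 8 to 13 for LB EPI and 13 to 18 for LB HYPO against ICM, 1 to 2 for Sph EPI against LB EPI (1 without LB EPI AO or Sph EPI D), 0 to 1 for Sph HYPO against LB HYPO (1 without TE AI, TE E6-ER, Sph EPI C or Sph HYPO E), 0 to 4 for ICM against TE (0 without TE AD, 1 without TE AA or AI, 2 without ICM AA or TE AB), 0 to 1 for LB EPI against LB HYPO, 0 to 0 for Sph EPI against Sph HYPO and for the difference of differences, and 16 to 19 for EPI against M and ICM. For ICM against M, 0 remained without ICM AC, AE or AG or M ER, S, T, U, W, X or Y. Small groups (3 to 10 embryos) and sums of 1 cell limit what could be detected.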
